A study of Mus musculus with 11 samples.

Results

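The facilitative glucose transporters of the Slc2a family (the GLUT proteins) were followed in the livers of db/db mice. The family was taken as 10 named genes (Slc2a1, Slc2a2, Slc2a3, Slc2a4, Slc2a5, Slc2a6, Slc2a8, Slc2a9, Slc2a10 and Slc2a12), and a probe belonged to a member when the RefSeq accession it was designed on is a transcript of that gene. Probes were found for 9 of the 10 genes, of 20144 genes named on the arrays, and Slc2a12 was not analysed here. The 9 genes had 10 probes, of which Slc2a6 had 2. The family was chosen with its response to the treatment already known, so that the differences between the treated and control livers are given below as a description. Where calls of members in the fit over all genes are given, they are not read as tests of the members.

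The study compared 6 livers of db/db mice treated with the glucagon receptor-blocking antibody 3c7.v44 (anti-GCGR, monoclonal, at 5 mg/kg) with 5 livers of db/db mice given phosphate-buffered saline (PBS), which the design text calls untreated. Both groups were db/db, an obese and diabetic strain without a working leptin receptor. Age, sex, route and dosing schedule are not given in the sources used here, nor is it stated that each sample was a separate mouse, so the spread is that between samples. Liver RNA carried the dye Cy5 and a commercial pooled mouse reference RNA the dye Cy3 on every array, so a value is the log2 ratio between liver and reference signal of 1 probe. Values of different genes are therefore not levels that can be ranked against each other.

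GLUT proteins let hexoses cross membranes down their concentration gradient, without energy. In hepatocytes the main carrier is GLUT2 (Slc2a2), which works in both directions: it takes up glucose after a meal and lets out the glucose that the liver makes during fasting, a state that glucagon promotes. Other members carry fructose or urate, serve the basal needs of many cells, or wait in vesicles until insulin calls them to the cell surface, as GLUT4 (Slc2a4) does in muscle and fat.

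The windows before the annotated starts of Slc2a2 and Slc2a1 are shown because these 2 genes lay on opposite sides of the control livers and differ in base composition. Both come from RefSeq (GRCm38.p6, plus strand, 250 bases each, chr3:28697653-28697902 and chr4:119108495-119108744). Capitals mark the motif ATCAAT or its complement ATTGAT, the core bound by the ONECUT factors of hepatocytes, in Slc2a2, and the GC box GGGCGG or CCGCCC in Slc2a1.
Slc2a2: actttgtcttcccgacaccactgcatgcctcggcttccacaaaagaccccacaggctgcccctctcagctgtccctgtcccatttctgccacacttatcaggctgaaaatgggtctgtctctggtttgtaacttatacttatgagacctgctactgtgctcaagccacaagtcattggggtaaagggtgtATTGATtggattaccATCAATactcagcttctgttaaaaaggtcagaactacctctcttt
Slc2a1: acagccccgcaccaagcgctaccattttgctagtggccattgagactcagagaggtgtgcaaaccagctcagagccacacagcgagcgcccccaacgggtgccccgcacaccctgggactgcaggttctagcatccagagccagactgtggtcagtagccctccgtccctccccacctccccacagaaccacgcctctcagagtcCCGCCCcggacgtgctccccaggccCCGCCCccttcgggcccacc

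The Slc2a2 window had 47.2% G and C and held the ONECUT core in 2 places, beginning 60 and 45 bases before the start, against 1 or more copies in 6.72% of 32851 RefSeq promoter windows of the same length. The Slc2a1 window had 66.4% G and C and 2 GC boxes, beginning 45 and 20 bases before the start, a motif found in 32.7% of the windows. The GC box was also in the windows of Slc2a5, Slc2a6 and Slc2a10, with 3, 1 and 2 copies. The E-box CACGTG, the core bound by glucose- and sterol-responsive factors, was searched on both strands as well and is present in 6.02% of the windows, and the TATA box TATAAA in 12.4%. Neither was among the letters of the windows of the 8 members with an entry (Slc2a1, Slc2a2, Slc2a5, Slc2a6, Slc2a8, Slc2a9, Slc2a10 and Slc2a12). Of these 8 windows only that of Slc2a2 held the ONECUT core. The motifs were chosen with the expression values known, and a match is a description of the letters.

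Across the arrays the median Cy5 signal of gene spots was 85 to 110 scanner units over a local background of 26 to 27, and the number of arrays limits the precision. Hepatocyte markers were present in every group, for example albumin (Alb) at a log2 ratio of 5.79 in anti-GCGR and 5.93 in PBS livers, though their differences ran both ways. The arrays lay on 3 slides that each held both groups (slide 1 with anti-GCGR 1 and 4 and PBS 1 and 4, slide 2 with anti-GCGR 2 and 5 and PBS 5, slide 3 with anti-GCGR 3 and 6 and PBS 3 and 6), and slides also share a scan. The arrays anti-GCGR 5 and PBS 5 stood apart from the rest of their groups for several genes below, and values without them are given. Anti-GCGR 5 lay within the PBS range for Slc2a1, Slc2a2 and Slc2a4. PBS 5 was the PBS array nearest the anti-GCGR mean for Slc2a1, Slc2a4, Pklr, Tkfc, Klf10, Tkt, Foxa3 and Pnp. For Slc2a2, Irs1, Slc2a13 and Abcg2 it was not. Both arrays were on slide 2. For 6.64% of all genes tested the groups did not overlap, so anti-GCGR 5 and PBS 5 lay on the side of their label there. Among these genes were Abcg2, the stellate cell marker Col1a1 and the platelet marker Pf4, with slide 2 differences of 0.40, 1.06 and 0.54. Whether the labels of anti-GCGR 5 and PBS 5 hold was not tested, and it bears on every group mean and on every difference within slide 2. Over 15974 genes tested, 14.6% passed an adjusted p of 0.05 (limma, two-sided, Benjamini-Hochberg), with 8.98% higher and 5.66% lower in anti-GCGR livers. Loess and median centring split the calls differently, with 61.3% of them higher under loess and 21.3% under centring on the array median.

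Among the transporters, Slc2a4 was 3.54-fold higher and Slc2a2 1.4-fold higher in anti-GCGR livers, and Slc2a1 was 1.5-fold lower, while the other 6 members differed by at most 0.26 on the log2 scale. In bulk liver a change in the number of cells of a type and a change in RNA per cell cannot be told apart. These 3 of 9 members were past the threshold of the fit over all genes, beside the 14.6% of all genes, and nothing is read from this count because the members were chosen on the same contrast. Leaving out PBS 1 took Slc2a2 out of the count, leaving out PBS 3 or anti-GCGR 3 took Slc2a1 out, and without PBS 6 it held Slc2a4 alone. No member had groups that did not overlap at all, which held for 6.64% of all genes, and 1 member reached a 2-fold difference, as did 0.664% of all genes. The median log2 fold change was 0.070 over the 9 members and 0.013 over all genes, and the median absolute value was 0.084 over the members and 0.095 over all genes. With the median-centred values 4 of the 9 members were higher in anti-GCGR livers, with the scanner software's own ratio 5 and with loess or the Cy5 channel alone 7, since several members lay near 0.

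**Figure D1:**
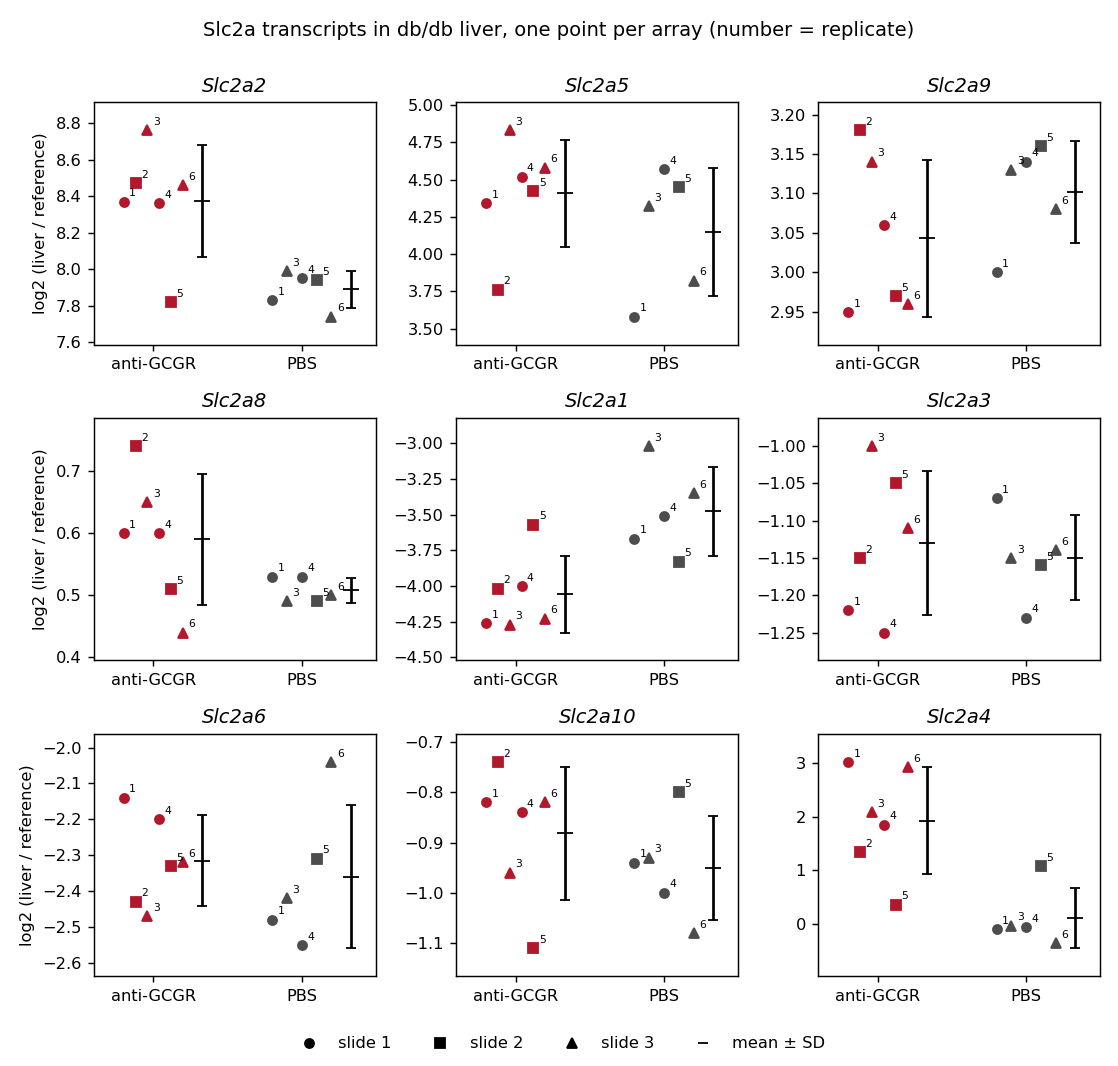
Log2 ratio of liver to reference (vertical axis, a separate scale in each panel) for the 9 measured members, 1 point per array, with anti-GCGR livers left of PBS livers, marker shapes for the slide, replicate numbers beside the points and the mean ± SD at the right of each group. For Slc2a2, Slc2a4 and Slc2a1 most points of the groups are apart, and the anti-GCGR 5 point lies among the PBS points.

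Slc2a2 is the carrier that hepatocytes rely on. Its log2 ratio in the 6 anti-GCGR livers was lowest at 7.82, had a median of 8.41 and was highest at 8.76, against 7.83, 7.99, 7.95, 7.94 and 7.74 in PBS livers 1, 3, 4, 5 and 6. The 5 anti-GCGR livers other than liver 5 were all above the PBS livers, and anti-GCGR 5 held the lowest value of its group, within the PBS range. The means were 8.37 ± 0.31 (SD, n = 6) in anti-GCGR and 7.89 ± 0.10 (SD, n = 5) in PBS livers, a log2 fold change of 0.48 ± 0.13 (SE of the limma fit). Of 6 hepatocyte markers 0 rose and 1, Serpina1c, fell (log2 fold change -0.26, limma adjusted p = 0.0359), with a median log2 fold change of -0.20 and values between -0.35 for Cps1 and 0.33 for Apoa1. Their part in the Slc2a2 difference was not tested. Without anti-GCGR 5 the Slc2a2 difference was 0.59, and without both anti-GCGR 5 and PBS 5 it was 0.60.

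Slc2a2 was dim in the reference RNA. Its reference signal was well above background on 4 of 6 anti-GCGR and on 0 of 5 PBS arrays, so the distance of liver from reference is a bound. Under loess Slc2a2 was at least 332-fold higher in anti-GCGR liver than in the reference and at least 237-fold higher in PBS liver. The bound depends on the scaling: the log2 ratio of PBS liver to reference was 7.89 under loess and 7.84 with median centring. The same ratio was 8.49 without background correction and 10.80 with the scanner software's ratio. In the Cy5 channel alone, which leaves the reference out, the groups differed by 0.42, and in Cy3 by 0.07. The scanner software's ratio, which divides by the dim reference after background subtraction, gave a difference of 0.03. The Slc2a2 difference was 0.48 within slide 1, 0.20 within slide 2 and 0.74 within slide 3.

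Slc2a4, the insulin-regulated transporter of muscle and fat, differed most. Its log2 ratio was 0.36 at the lowest, 1.97 at the median and 3.02 at the highest in anti-GCGR livers, against -0.10, -0.03, -0.06, 1.08 and -0.36 in PBS livers 1, 3, 4, 5 and 6. Anti-GCGR 1 and 6 were highest, at 3.02 and 2.92. The groups overlapped through 1 array of each, since PBS 5 at 1.08 lay above anti-GCGR 5 at 0.36, and the other anti-GCGR livers were all above the PBS livers. The group means were 1.93 ± 1.0 (SD, n = 6) in anti-GCGR and 0.11 ± 0.56 (SD, n = 5) in PBS livers, with a log2 fold change of 1.82 ± 0.42 (SE). Of all genes tested, 99.9% had a smaller absolute change.

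The Slc2a4 probe was printed in 10 spots per array, which gives its measuring error. The SD over the 10 spots was between 0.05 and 0.13 on every array. These values cover the error within an array and not that between hybridisations, and livers such as PBS 1, 3 and 4 differed by no more than this. On anti-GCGR 5 the spots ran from 0.23 to 0.46 and on PBS 5 from 0.86 to 1.25, so the places of these arrays held in every spot. The raw Cy5 signal (mean of the spots) was 714 on anti-GCGR 1, 717 on anti-GCGR 6 and 125 on anti-GCGR 5, against 229 on PBS 5 and 59.5 to 82.8 on the other PBS arrays, and the probe was well above background on all 11 arrays. The reference dye differed by 0.02 between the groups.

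Within slides the Slc2a4 difference was 2.51 on slide 1 and 2.69 on slide 3, and -0.23 on slide 2, which holds anti-GCGR 2, anti-GCGR 5 and PBS 5. The log2 fold change was 2.14 without anti-GCGR 5, 2.06 without PBS 5 and 2.38 without both. Among the anti-GCGR livers Slc2a4 thus covered 2.66 log2 units, the widest range of the members.

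Because Slc2a4 is best known from fat and muscle, markers of those tissues were read beside it. Of 6 adipocyte markers 5 were tested and 0 passed the threshold in either direction. Their mean deviation from the PBS mean lay between -0.03 and 0.60 in anti-GCGR livers and between -0.22 and 0.26 in PBS livers. Adiponectin (Adipoq) differed by -0.21 and perilipin 1 (Plin1), the coat protein of fat droplets, by 0.04, whereas the fatty acid carrier Fabp4 differed by 0.45 and adipsin (Cfd) by 1.0 (limma adjusted p = 0.0974, 0.733, 0.0681 and 0.0529). Retn differed by 0.16 (limma adjusted p = 0.663), and leptin (Lep) was not well above background on the arrays. Of 4 muscle markers 2 were tested and 0 passed the threshold, with a mean deviation of 0.03 to 0.51 in anti-GCGR and -0.17 to 0.15 in PBS livers. Acta1 differed by 0.33 and Actn3 by -0.02 (limma adjusted p = 0.0984 and 0.858), and Ckm and Myh4 were not well above background. The part of fat or muscle RNA in the Slc2a4 difference was not tested.

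Slc2a1 encodes GLUT1, the basal carrier of many cells, and it was far below the reference in liver. Its log2 ratio was -4.27 at the lowest, -4.13 at the median and -3.57 at the highest in anti-GCGR livers, against -3.67, -3.02, -3.51, -3.83 and -3.35 in PBS livers 1, 3, 4, 5 and 6. Again the 5 anti-GCGR livers other than liver 5 were beyond all PBS livers, here on the low side, and anti-GCGR 5 lay among them. The means were -4.06 ± 0.27 (SD, n = 6) in anti-GCGR and -3.48 ± 0.31 (SD, n = 5) in PBS livers, a log2 fold change of -0.58 ± 0.15 (SE). The difference was -0.77 without anti-GCGR 5 and PBS 5.

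Within slides Slc2a1 differed by -0.54 on slide 1, 0.03 on slide 2 and -1.07 on slide 3. Of 6 red cell markers 3 were tested, and 2 rose in anti-GCGR livers (Hba-a1 by 0.21 and Slc4a1, the anion exchanger of red cells, by 0.42), while Alas2 differed by 0.02. Their mean deviation was -0.01 to 0.39 in anti-GCGR and -0.08 to 0.07 in PBS livers, while Epb42 was not well above background. Past the threshold, 3 of 6 endothelial, 3 of 5 stellate cell and 2 of 4 platelet markers also rose. Of the platelet markers not past it, Gp9 differed by 0.17 and Itga2b by -0.15. All these marker counts are under loess, where 8.98% of all genes rose. The part of red cells and of these cell types in the Slc2a1 and Slc2a4 differences was not tested.

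**Figure D2:**
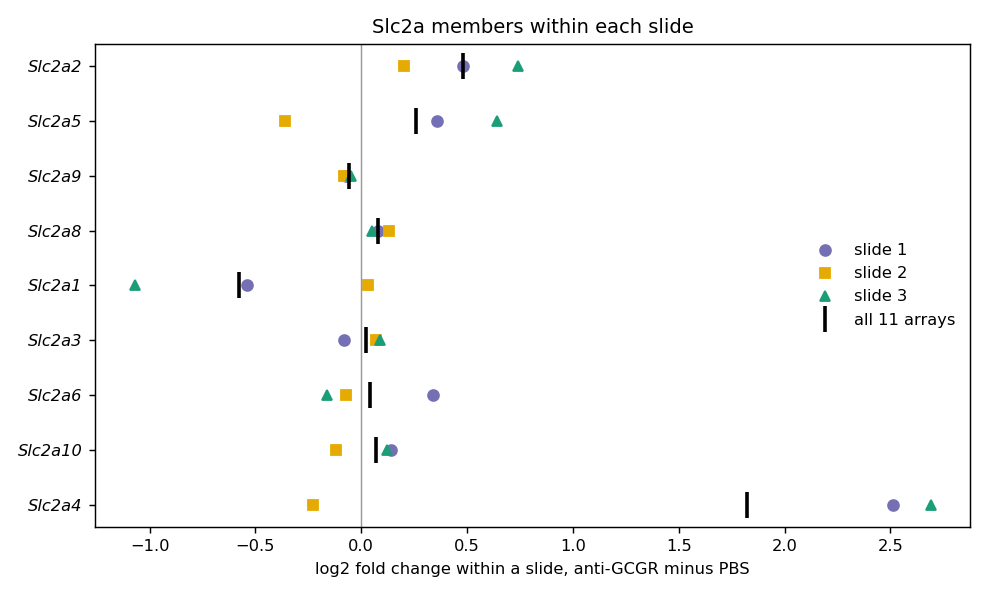
Difference in log2 ratio between anti-GCGR and PBS livers (horizontal axis) for each measured member (vertical axis), within each of the 3 slides and over all arrays. For Slc2a4 slides 1 and 3 lie at 2.51 and 2.69 and slide 2 at -0.23, and for Slc2a1 slide 2 lies at 0.03.

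Slc2a3, the high-affinity carrier of neurons and blood cells, had similar values in both groups. Its log2 ratio ran from -1.25 through a median of -1.13 to -1.0 in anti-GCGR livers, against -1.07, -1.15, -1.23, -1.16 and -1.14 in PBS livers 1, 3, 4, 5 and 6. The PBS values lay within the anti-GCGR range. The log2 fold change was 0.02 ± 0.06 (SE), and -0.08 with median centring.

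The fructose carrier Slc2a5 was above the reference in both groups and variable in both. Its log2 ratio was 3.76 at the lowest, 4.47 at the median and 4.83 at the highest in anti-GCGR livers, against 3.58, 4.32, 4.57, 4.45 and 3.82 in PBS livers 1, 3, 4, 5 and 6. The reference signal was well above background on 6 of 6 anti-GCGR and 3 of 5 PBS arrays, and the PBS arrays where it was not, 1 and 6, gave the lowest PBS ratios. Their raw liver (Cy5) signal was also the lowest of the PBS arrays, at 710 and 848.5, against 1446, 1820 and 1668 on PBS 3, 4 and 5. The groups overlapped over most of their range, with means of 4.41 ± 0.36 (SD, n = 6) in anti-GCGR and 4.15 ± 0.43 (SD, n = 5) in PBS livers. The log2 fold change of 0.26 ± 0.20 (SE) became -0.04 when the scanner's ratio was used, 0.14 in Cy5 alone and 0.12 without PBS 1. Within slides it was 0.36, -0.36 and 0.64.

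Slc2a9 carries urate, and liver takes urate up through it. Its log2 ratio was 2.95 to 3.18 with a median of 3.01 in anti-GCGR livers, against 3.00, 3.13, 3.14, 3.16 and 3.08 in PBS livers 1, 3, 4, 5 and 6. The ranges overlapped, and the log2 fold change was -0.06 ± 0.06 (SE), -0.17 with median centring and -0.19 in Cy5 alone. The 3 slides gave -0.07, -0.08 and -0.05.

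Slc2a8, which sits on membranes inside the cell, was slightly above the reference. Its log2 ratio was 0.44 at the lowest, 0.60 at the median and 0.74 at the highest in anti-GCGR livers, against 0.53, 0.49, 0.53, 0.49 and 0.50 in PBS livers 1, 3, 4, 5 and 6. The PBS values spanned 0.04 and lay inside the anti-GCGR range of 0.30. The log2 fold change was 0.08 ± 0.06 (SE), and -0.02 with median centring.

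Slc2a6, an intracellular carrier found in leukocytes, had 2 probes that differed in sign. The brighter one ran from -2.47 through a median of -2.32 to -2.14 in anti-GCGR livers, against -2.48, -2.42, -2.55, -2.31 and -2.04 in PBS livers 1, 3, 4, 5 and 6, with a log2 fold change of 0.04 ± 0.09 (SE) that was -0.06 with median centring. The other gave -0.43 ± 0.13 in anti-GCGR and -0.31 ± 0.16 in PBS livers, a difference of -0.11. Both differences, whose slides gave 0.34, -0.07 and -0.16 for the brighter probe, were smaller than the SD within PBS livers, and the groups overlapped on both probes.

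Slc2a10, whose human counterpart is mutated in arterial tortuosity syndrome, was below the reference. Its log2 ratio was -1.11 at the lowest, -0.83 at the median and -0.74 at the highest in anti-GCGR livers, against -0.94, -0.93, -1.0, -0.80 and -1.08 in PBS livers 1, 3, 4, 5 and 6. The log2 fold change was 0.07 ± 0.07 (SE), and -0.02 with the scanner software's ratio. The liver signal was well above background on 5 of 6 anti-GCGR and 4 of 5 PBS arrays.

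**Figure D3:**
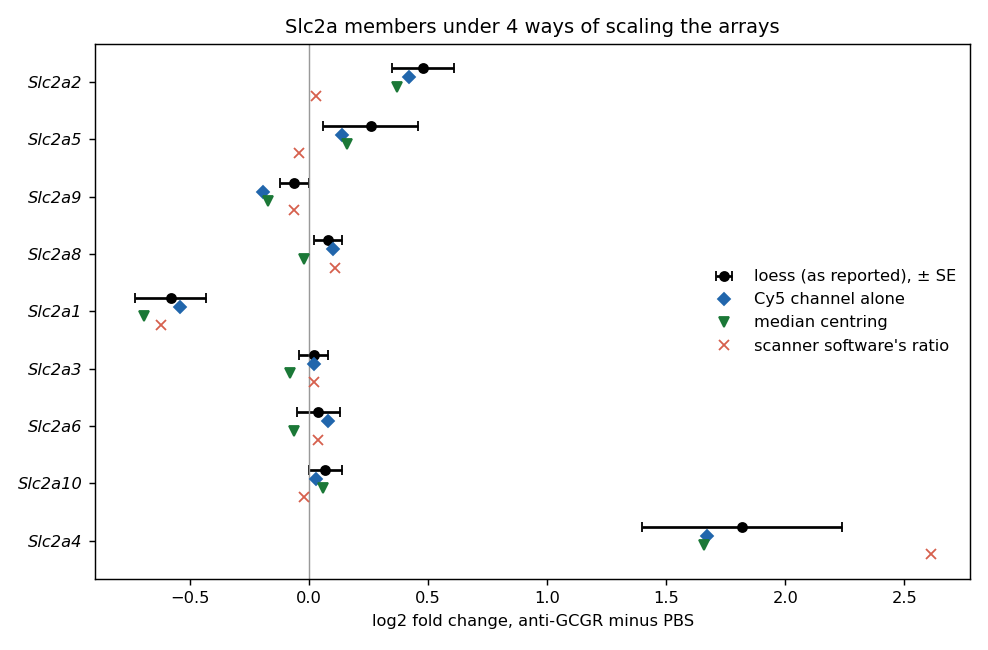
Log2 fold change of anti-GCGR over PBS livers (horizontal axis) of each measured member (vertical axis) under loess, median centring, the scanner software's ratio and the Cy5 channel alone. Slc2a4 lies at 1.82, 1.66, 2.61 and 1.67, Slc2a1 is below 0 under each scaling, and Slc2a2 lies at 0.03 with the scanner software's ratio.

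The genes whose values over the 11 arrays lay closest to those of Slc2a2 and Slc2a4 were found by the root mean square difference of log2 ratios, each less its PBS mean. For Slc2a2 they were Lsr, a lipoprotein receptor, at 0.09, and Ctdspl, a phosphatase, and Dhx37, an RNA helicase, both at 0.12. For Slc2a4 they were Cabp2, a calcium-binding protein, at 0.32, and 2 enzymes of fatty acid synthesis, Acly, which makes cytosolic acetyl-CoA, at 0.33 and Elovl6, which lengthens fatty acids, at 0.38. Their fold changes are close to those of Slc2a2 and Slc2a4 by the way they were chosen.

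Lists of genes that act beside the transporters were read in the same fit. Of 14 genes of hexose phosphorylation, glucose release and fructose breakdown, 4 rose and 0 fell in anti-GCGR livers, with a median log2 fold change of 0.274, beside 8.98% of all genes that rose. The count of rises was 2 with median centring, with the scanner's ratio or without PBS 1, and 7 without anti-GCGR 5. With replicate number as a block, in which anti-GCGR 2 drops out, it was 0, against 3 without anti-GCGR 2 and without the block. Pyruvate kinase Pklr, the last step of glycolysis, was at 4.45 ± 0.53 (SD, n = 6) in anti-GCGR and 3.05 ± 0.61 (SD, n = 5) in PBS livers (log2 fold change 1.39, limma adjusted p = 0.0106). With the scanner software's ratio it was 0.63 with an adjusted p of 0.345, in a range of 5.7e-05 to 0.345 over the alternatives. Tkfc, which acts on the fructose breakdown product glyceraldehyde, was at 4.48 ± 0.27 in anti-GCGR and 3.94 ± 0.15 in PBS livers (0.53, limma adjusted p = 0.0143). Slide 2 gave -0.08 for Pklr, against 1.59 and 2.23 on slides 1 and 3.

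Of 9 glucose-sensing factors and their targets 4 rose and 0 fell, with a median of 0.202, beside the same 8.98% of all genes. The count of rises was 2 with the scanner's ratio and 2 without PBS 1 or without PBS 3. With replicate number as a block it was 1, and Klf10 and Tkt missed the threshold. Klf10, a factor induced by glucose, was at -0.21 ± 0.57 (SD, n = 6) in anti-GCGR and -1.36 ± 0.34 (SD, n = 5) in PBS livers (log2 fold change 1.15, limma adjusted p = 0.0121), and Tkt, an enzyme of the pentose phosphate path, at 0.71 ± 0.41 in anti-GCGR and -0.21 ± 0.28 in PBS livers (0.92, limma adjusted p = 0.00961). Within slides Klf10 differed by 1.73, 0.10 and 1.37 and Tkt by 1.22, 0.02 and 1.29, so the slide with anti-GCGR 5 and PBS 5 gave the smallest differences.

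None of the 10 hepatocyte transcription factors listed for the Slc2a2 promoter passed the threshold, and 2 had an unadjusted limma p under 0.05. The smallest p belonged to Foxa3, at 2.43 ± 0.13 (SD, n = 6) in anti-GCGR and 2.65 ± 0.22 (SD, n = 5) in PBS livers (limma adjusted p = 0.141). The ONECUT factor Onecut1 differed by 0.03 ± 0.12 (SE). In the Cy5 channel alone 4 of the 10 fell.

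Of 15 proteins of the GLUT4 vesicle and of insulin signalling to it, 0 passed the threshold and 3 had an unadjusted limma p under 0.05. The insulin receptor substrate Irs1 was at 0.05 ± 0.23 (SD, n = 6) in anti-GCGR and 0.48 ± 0.29 (SD, n = 5) in PBS livers (log2 fold change -0.43, limma adjusted p = 0.0502), and its other probe differed by -0.14. Irs1 fell past the threshold with median centring, a stricter background filter or slide as a block, and without PBS 3, PBS 6 or anti-GCGR 5. It also fell without both anti-GCGR 5 and PBS 5, and missed the threshold in the other alternatives. With median centring 3 of the 15 fell.

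Of 12 other sugar transporters tested 0 passed, and 1 had an unadjusted limma p under 0.05. This was Slc2a13, a proton-coupled inositol carrier, at -0.66 ± 0.13 (SD, n = 6) in anti-GCGR and -0.46 ± 0.10 (SD, n = 5) in PBS livers (limma adjusted p = 0.0663), which fell without anti-GCGR 5 and with median centring. Of 9 urate genes tested 1 rose and 1 fell, but 0 rose and 3 fell with median centring, and 1 rose and 3 fell without anti-GCGR 5 or with slide as a block. With replicate number as a block 1 rose and 0 fell. The urate exporter Abcg2 was at 3.18 ± 0.13 in anti-GCGR and 2.86 ± 0.12 in PBS livers without overlap (log2 fold change 0.32, limma adjusted p = 0.0167), but missed the threshold with median centring, and the purine phosphorylase Pnp was at 1.73 ± 0.21 in anti-GCGR and 2.20 ± 0.15 in PBS livers (-0.48, limma adjusted p = 0.0115). Over the 69 genes of all lists 14.5% passed, beside 14.6% of all genes.

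**Figure D4:**
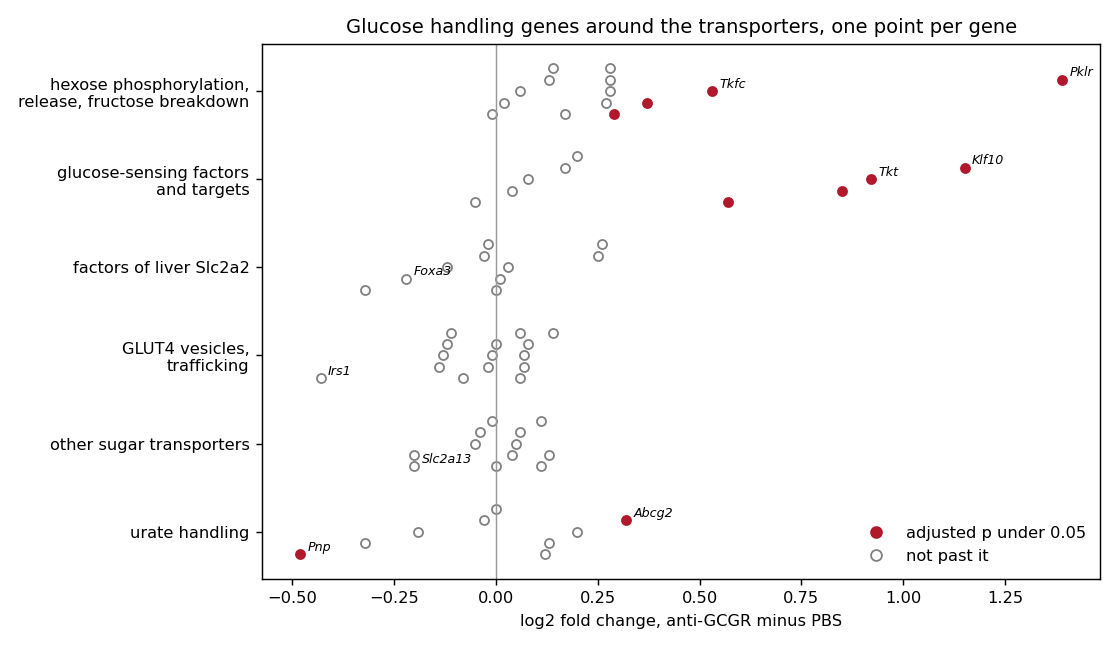
Log2 fold change of anti-GCGR over PBS livers for the tested genes of the 6 lists, 1 point per gene, with genes past the threshold marked. The medians of the first 2 lists lie at 0.274 and 0.202, and those of the other lists lie between -0.009 and 0.022.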

How the data were processed

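Two-colour Agilent arrays of liver RNA (Cy5) against a pooled reference (Cy3) were read by the authors with Feature Extraction, given as 11 by the submitters' processing notes and as 11.5.1.1 inside the files. Scanner output as deposited gives spot and background intensity values, quality flags and a log10 ratio, per the file headers. The authors' deposited table holds a log2 ratio per probe, whose column medians lay between -0.00277 and 0.00809. Set against the values below, it was a loess-normalised ratio of Cy5 over Cy3, with a median absolute difference of 0.00329 on the log2 scale.

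From the spot intensities, normexp background correction (offset 50) and loess within each array were run in limma 3.58.1 (R 4.3.3), with control spots at weight 0 and uneven spots left out. Spots of a probe were averaged. Of 39429 gene probes 26581 were named to 20144 genes through RefSeq accessions (GRCm38.p6). A probe had to be well above background in the liver channel on 5 or more of the 11 arrays, the brightest kept probe stood for its gene, and 15974 genes were tested between the groups at a Benjamini-Hochberg adjusted p of 0.05. Alternatives were other scalings, filters, probe rules, slide or replicate blocks, and leaving out arrays.

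The members and lists were chosen with earlier results of these data known. The text names all members, the 2 largest rises and falls past the threshold in each list or else the gene with the smallest p, and the 3 genes most like Slc2a2 and Slc2a4; the marker genes and Onecut1 were named beside them after their values were seen.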

Additional observations from a re-analysis of the deposited data

Results flagged for a closer look

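For Slc2a4 the array PBS 5 was far from the rest of its group, at a log2 ratio of 1.08, with the next PBS array at -0.03. It was the 1 case among 36 groups of values checked, a rule that chance alone also trips now and then.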

How the results depend on the processing

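No result changed sign with its call. Members past the threshold numbered 3 under loess and 2 with median centring or the scanner software's ratio, which left out Slc2a2. The member counts are a description, because the members were chosen on this contrast. Leaving out single arrays gave 1 to 3 members (1, Slc2a4, without PBS 6), 6 to 18 list genes (10 with all arrays) and 1240 to 3868 of all genes (2338 with all arrays). Without both PBS 5 and anti-GCGR 5, which was chosen after seeing the data, 18 list genes and 3669 genes passed. The Cy5 channel alone gave 18 list genes. Calls were 61.3% higher under loess, 21.3% with median centring, 45.2% with the scanner software's ratio and 51.3% in Cy5 alone, with medians of all genes of 0.013, -0.058, -0.015 and 0.002. Same-numbered arrays deviated together little (correlations of 0.12, 0.03, -0.01, -0.13 and 0.14 for numbers 1, 3, 4, 5 and 6). The labels do not say whether the numbers pair the livers. These correlations cannot decide it, since paired livers need not deviate together. With the replicate block, in which anti-GCGR 2 has no partner and drops out of the comparison, 0 members, 2 list genes and 1046 genes passed, against 3, 9 and 1812 without anti-GCGR 2 and without the block. The number of arrays and the dim reference signal of Slc2a2 limit these values.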
